A study of Homo sapiens with 8 samples.

Results

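The genes described here are EMP1, NRP1, THBS1, MICAL2, CXCL8, CRIM1, SPINT2, TNFAIP2, NDST1 and SPATS2L, 10 protein-coding genes well known from adherent cells such as epithelium, endothelium and fibroblasts. They are 10 of the 17467 genes held in all 3 deposited tables, and they were chosen by their much higher values in the MS8815 libraries, so the values of MS8815 against DMSO below are a description and carry no test. SUDHL6 is an established human B-cell lymphoma line of the germinal-centre type that grows in suspension. RNA-seq was made from total RNA of 4 groups of 2 libraries each, namely cells given MS8815 (a PROTAC against the histone methyltransferase EZH2), EPZ-6438 (an inhibitor of the catalytic SET domain of EZH2), MS8815N (an analog that is not a PROTAC) or DMSO (the solvent). Every group was treated for 18 h, the compounds were used at 2.5 µM, and no group carried a genetic change named in the labels. The duplicates are not said to come from separate cultures, so the tests weigh a difference against the scatter of duplicates that may be technical repeats.

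EZH2 is the catalytic subunit of Polycomb repressive complex 2, which methylates lysine residues of histone H3 at genes that are kept silent. A PROTAC joins a ligand of its target to a ligand of an E3 ubiquitin ligase, so that the target is marked for the proteasome, whereas a SET-domain inhibitor blocks methyl transfer and leaves the protein in place. Many genes of adhesion, matrix and cell-surface signalling are silent or low in lymphoid cells and are known from cells that attach to a substrate.

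The 10 genes work outside, at and inside the cell surface. THBS1 encodes thrombospondin-1, a secreted matrix glycoprotein that activates latent TGF-β, and CXCL8 encodes interleukin-8, the chemokine that attracts neutrophils. NRP1 is a co-receptor for semaphorins and VEGF, EMP1 is a tetraspan membrane protein of the PMP22 family, CRIM1 is a transmembrane protein that binds bone morphogenetic proteins, and SPINT2 is a Kunitz-type inhibitor of serine proteases such as the activator of hepatocyte growth factor. NDST1 modifies heparan sulfate chains in the Golgi, MICAL2 oxidises actin and acts on transcription by serum response factor, and TNFAIP2 is a TNF-induced protein that interacts with the exocyst. SPATS2L is a paralog of SPATS2.

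RefSeq (GRCh38.p14) gave 9 promoters for 7 of the 10 genes, and NRP1, CRIM1 and SPINT2 had no entry in the table used. Of these, 5 windows of 250 bases before the annotated start are shown, because they set promoters that hold an AP-1 sequence (CXCL8, EMP1 and NDST1) beside the GC-rich ones of THBS1 and TNFAIP2. All 5 lie on the plus strand and are written 5′ to 3′. Capitals mark exact matches, on either strand, to 5 motifs. They were the AP-1 site searched as TGANTCA, in which N is any base, the NF-κB site GGAATTTCC and the TATA box TATAAA. The others were the TEAD site GGAATG and the GC box GGGCGG, and matches of the GC box run into each other in TNFAIP2.
CXCL8 promoter, chr4:73740319-73740568: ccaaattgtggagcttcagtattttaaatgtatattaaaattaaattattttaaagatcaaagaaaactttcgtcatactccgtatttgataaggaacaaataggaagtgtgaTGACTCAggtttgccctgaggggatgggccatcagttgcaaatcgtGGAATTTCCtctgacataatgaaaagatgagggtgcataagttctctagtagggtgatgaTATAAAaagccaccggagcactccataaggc
EMP1 promoter, chr12:13196476-13196725: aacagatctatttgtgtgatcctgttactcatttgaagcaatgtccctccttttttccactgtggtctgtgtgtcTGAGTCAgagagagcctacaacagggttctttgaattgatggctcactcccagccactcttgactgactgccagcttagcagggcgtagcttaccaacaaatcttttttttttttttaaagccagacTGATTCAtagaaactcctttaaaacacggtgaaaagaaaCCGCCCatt
NDST1 promoter, chr5:150497529-150497778: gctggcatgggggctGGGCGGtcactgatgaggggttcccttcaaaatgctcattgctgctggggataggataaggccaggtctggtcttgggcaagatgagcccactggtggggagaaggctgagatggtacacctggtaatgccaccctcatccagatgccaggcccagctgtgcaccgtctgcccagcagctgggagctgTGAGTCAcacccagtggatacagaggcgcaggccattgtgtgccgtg
THBS1 promoter, chr15:39580829-39581078: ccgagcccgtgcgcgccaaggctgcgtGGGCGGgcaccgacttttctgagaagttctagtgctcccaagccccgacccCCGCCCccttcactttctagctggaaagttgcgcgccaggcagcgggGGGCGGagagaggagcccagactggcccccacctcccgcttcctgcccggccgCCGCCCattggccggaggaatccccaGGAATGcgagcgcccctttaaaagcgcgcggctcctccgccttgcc
TNFAIP2 promoter, chr14:103123211-103123460: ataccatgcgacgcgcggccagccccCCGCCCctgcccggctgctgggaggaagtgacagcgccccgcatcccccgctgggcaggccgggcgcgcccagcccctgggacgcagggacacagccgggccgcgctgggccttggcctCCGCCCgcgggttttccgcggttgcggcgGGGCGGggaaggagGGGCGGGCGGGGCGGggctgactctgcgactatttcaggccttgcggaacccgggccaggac

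The CXCL8 window held an AP-1 match that starts 137 bases before the annotated start, an NF-κB match at 91 bases and a TATA box at 31 bases. EMP1 held 2 matches to the AP-1 letters, TGAGTCA at 175 and TGATTCA at 48 bases before its start. NDST1 held 1, TGAGTCA at 47 bases. The NDST1 window lies inside the gene span given below, which begins at 150485818, so it belongs to a start further downstream in that span. The windows of CXCL8, EMP1 and TNFAIP2 also end inside the spans given below. Positions are therefore counted from the RefSeq start and not from the start of the span. The AP-1 letters stood in 3 of the 9 windows, from 3 of the 7 genes, and in 6.57% of 35116 RefSeq promoter windows of the same length. The NF-κB letters, spelled after the CXCL8 promoter had been seen, stood in 0.413% of all windows and in no other window of these genes. TATAAA stood in CXCL8 and MICAL2 (10.7% of all windows), GGAATG in THBS1 (11.9%), and GGGCGG in NDST1, EMP1, TNFAIP2 and THBS1 (42.6%). The ratio of observed to expected CpG was 0.81 in both THBS1 and TNFAIP2 and 0.47 in CXCL8, 0.27 in EMP1 and 0.18 in NDST1, against a median of 0.56 over all windows. A match is a description of letters and not of a bound site.

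Values below are normalised read counts, recovered from the deposited variance-stabilised values and placed on 1 scale through the DMSO libraries that the tables share. Estimated depth was 13 and 14.6 M reads in the MS8815 libraries, 30.5 and 26.0 M with EPZ-6438, 34.1 and 30.2 M with MS8815N, and between 30.9 and 31.7 M with DMSO. Each of the 10 genes rested on an estimated 652 to 5044 reads per MS8815 library, 62 to 763 per EPZ-6438 library, 128 to 922 per MS8815N library and 54 to 512 per DMSO library, so the DMSO values are the least precise. The line was identified as B-lymphoid by its markers, with DMSO means of 16972 for MS4A1, 31269 for CD79A and 6781 for PAX5.

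All 10 genes were many times higher with MS8815 than in any other group. The means of the 3 other groups reached at most 10.54% of the MS8815 mean (MICAL2 with MS8815N). These groups also differed from each other, with a ratio of means of MS8815N over DMSO of up to 2.284 (TNFAIP2). THBS1 (chromosome 15, 39581079 to 39599466, GRCh38, GENCODE 29, plus strand) had 8246 and 10064 normalised counts with MS8815, 675.8 and 549.6 with EPZ-6438, 850.0 and 889.7 with MS8815N, and 528.8 and 436.6 with DMSO. Both MS8815 libraries stood far above every other library, and both MS8815N libraries were above all 4 libraries of EPZ-6438 and DMSO. CXCL8 (chromosome 4, 73740506 to 73743716, plus strand) had 2479 and 2405 normalised counts with MS8815, 143.9 and 135.2 with EPZ-6438, 145.1 and 135.5 with MS8815N, and 114.7 and 84.14 with DMSO. The EPZ-6438 and MS8815N values of the chemokine were nearly the same, and both groups lay above DMSO without overlap.

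Among the membrane proteins, NRP1 (chromosome 10, 33177492 to 33336262, minus strand) had 5194 and 5223 normalised counts with MS8815, 339.0 and 312.5 with EPZ-6438, 325.3 and 286.9 with MS8815N, and 279.8 and 182.0 with DMSO. Its MS8815 libraries were almost equal and its DMSO libraries lay apart from each other, yet below all libraries of the compounds. EMP1 (chromosome 12, 13196716 to 13219939, plus strand), whose AP-1 sequences are printed above, had 3798 and 4578 normalised counts with MS8815, 233.0 and 391.8 with EPZ-6438, 351.0 and 264.5 with MS8815N, and 187.2 and 156.7 with DMSO. The EPZ-6438 and MS8815N values of EMP1 overlapped each other, and neither group overlapped DMSO.

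CRIM1 (chromosome 2, 36355926 to 36551135, plus strand) had 1937 and 2711 normalised counts with MS8815, 131.8 and 142.1 with EPZ-6438, 187.1 and 133.5 with MS8815N, and 110.2 and 89.61 with DMSO. It had the widest spread between the MS8815 libraries of the 10 genes, with a ratio of 1.40 between them. SPINT2 (chromosome 19, 38244035 to 38292614, plus strand) had 1833 and 1831 normalised counts with MS8815, 170.6 and 136.1 with EPZ-6438, 135.1 and 154.5 with MS8815N, and 72.24 and 85.39 with DMSO. The protease inhibitor was the member whose EPZ-6438 mean came nearest to MS8815, at 8.37% of it.

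Inside the cell, MICAL2 (chromosome 11, 12094008 to 12359144, plus strand) had 3313 and 3249 normalised counts with MS8815, 277.9 and 193.1 with EPZ-6438, 371.4 and 320.3 with MS8815N, and 161.5 and 159.4 with DMSO. The groups of this actin oxidase followed each other without overlap, MS8815 first, then MS8815N, EPZ-6438 and DMSO. NDST1 (chromosome 5, 150485818 to 150558211, plus strand) had 1782 and 1897 normalised counts with MS8815, 127.5 and 105.1 with EPZ-6438, 122.8 and 154.7 with MS8815N, and 55.71 and 106.0 with DMSO. Its lower EPZ-6438 library lay below the higher DMSO library, so these groups overlapped.

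TNFAIP2 (chromosome 14, 103123442 to 103137439, plus strand) had 1524 and 1543 normalised counts with MS8815, 68.97 and 56.38 with EPZ-6438, 140.4 and 158.7 with MS8815N, and 71.27 and 59.68 with DMSO. It was the member whose EPZ-6438 libraries lay among the DMSO libraries while both MS8815N libraries lay above them. SPATS2L (chromosome 2, 200305881 to 200482263, plus strand) had 2114 and 2372 normalised counts with MS8815, 154.3 and 193.6 with EPZ-6438, 227.3 and 150.3 with MS8815N, and 97.02 and 90.88 with DMSO. Its EPZ-6438 and MS8815N libraries overlapped each other and lay above DMSO.

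**Figure D1:**
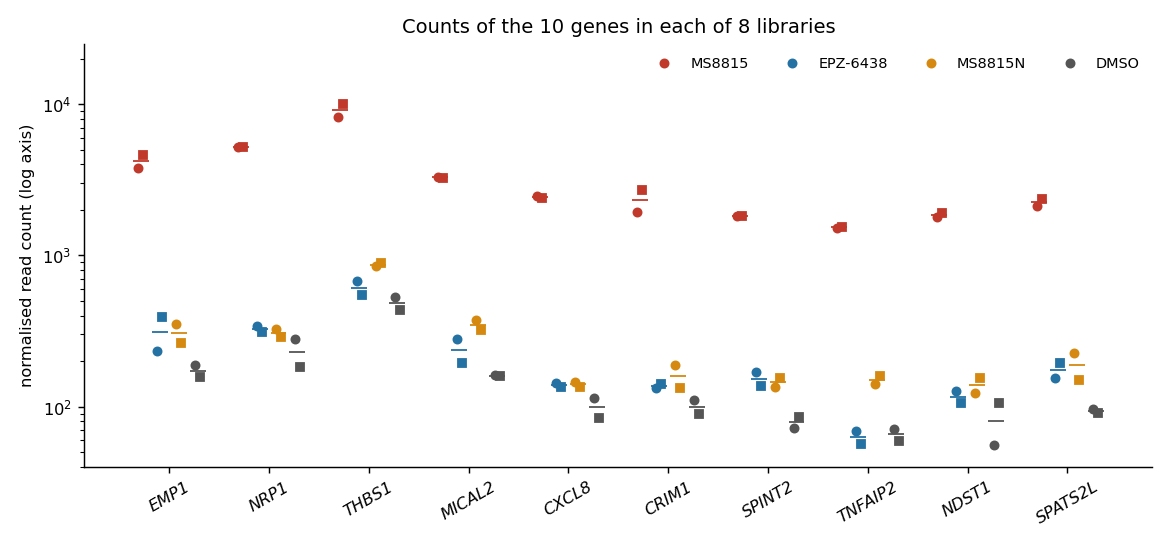
Normalised read count (log axis) of each of the 10 genes in the 8 libraries, with points for libraries and bars for group means of 2 libraries. The MS8815 libraries stand apart in every gene, far above those of EPZ-6438, MS8815N and DMSO. The latter groups differ less from each other, with TNFAIP2 at 140.4 and 158.7 with MS8815N against 71.27 and 59.68 with DMSO.

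The log2 fold change of MS8815 against DMSO, computed on log2(normalised count + 1), lay between 4.24 for THBS1 and 4.61 for CXCL8, with a median of 4.52. Over all 18744 genes of that table the median was 0 and the values between the 10th and 90th percentiles ran from -0.78 to 3.24. The 10 genes held ranks between 166 and 384, and 756 genes, 4.03% of the table, had a log2 fold change of at least 4, so the 10 are part of a wide group of genes with values of that size. Both MS8815 libraries lay above both DMSO libraries for 10 of 10 genes, which was also so for 37.9% of all genes; the choice of members fixes this count. The ratio of group means, MS8815 over DMSO, lay between 18.96 and 24.56.

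Libraries of MS8815 also differed from the rest in the markers of several cell types, and their part in the values of the 10 genes was not tested. Of 15 B-cell markers, 14 were tested and 14 of 14 fell with MS8815, by a median of 1.06 on the log2 scale, in a comparison in which limma called 24.5% of all genes higher and 22.4% lower at an adjusted p below 0.05. Their summed count was 97638 and 98949 with MS8815, between 195307 and 196019 with EPZ-6438, between 194940 and 195117 with MS8815N, and between 196676 and 196801 with DMSO. In bulk RNA, fewer cells of a type and less RNA per cell cannot be told apart.

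Epithelial markers rose in 7 of 8 tested cases, with a median log2 fold change of 3.98, and the tested marker that was not called was CDH1. The sum of the 7 held in all tables was 14592 and 14287 with MS8815, 1186 and 1028 with EPZ-6438, 1238 and 1208 with MS8815N, and 908.7 and 829.7 with DMSO. Of the fibroblast list of 9 genes, 5 were tested and 3 rose. The sum of the 4 held in all tables ran from 4041 to 4089 with MS8815, 349.4 to 418.7 with EPZ-6438, 411.9 to 417.8 with MS8815N and 212.9 to 344.5 with DMSO. Most of that sum was FN1, which averaged 3910 with MS8815 and 250.8 with DMSO. COL1A1 averaged 107.9 and PDGFRB 43.49 with MS8815. DCN was lower, at 3.446 with MS8815 and 11.96 with DMSO, and was not called (limma adjusted p = 0.177). CDH1, COL1A2, COL3A1, LUM, FAP and THY1 of these lists were not in all 3 tables. None of 2 tested endothelial markers was called (limma; 1 at an unadjusted p below 0.05), 2 of 4 myeloid markers rose, and none of 3 T and NK markers was called (limma; 0 at an unadjusted p below 0.05). Their sums were 49.32 to 169.8, 312.1 to 343.4 and 63.96 to 87.75 with MS8815, against 16.46 to 21.31, 211.1 to 270.9 and 88.71 to 118.4 with DMSO, in the order endothelial, myeloid, and T and NK. No listed marker held in all 3 tables was at 0 in both libraries of a group. Transcripts encoded in mitochondrial DNA rose in 13 of 13 cases, and made up 3.98% to 4.21% of counts with MS8815 against 1.53% to 1.58% with DMSO.

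**Figure D2:**
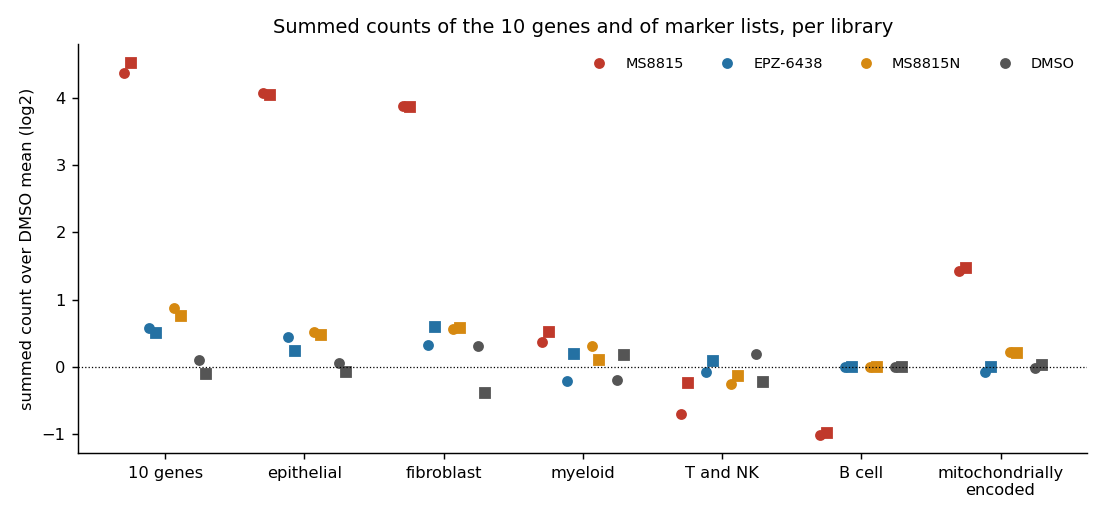
Summed normalised count of the 10 genes and of marker lists per library, as log2 over the DMSO mean, by group. The endothelial list is not shown. With MS8815 the B-cell sum lay at -1.01 and -0.99, below DMSO. The epithelial sum lay at 4.07 and 4.04 with MS8815, above 0.06 and -0.07 with DMSO.

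Set against their own level with MS8815, the other groups kept small shares of the 10 genes. The EPZ-6438 mean was 6.51% of the MS8815 mean at the median gene and ran from 4.09% for TNFAIP2 to 8.37% for SPINT2. The MS8815N mean was 7.72% at the median gene, from 5.74% for CXCL8 to 10.5% for MICAL2. The DMSO mean was 4.30% at the median gene, from 4.07% for CXCL8 to 5.27% for THBS1. By library, the median share was 6.69% and 6.0% with EPZ-6438, 8.22% and 7.56% with MS8815N, and 4.67% and 3.97% with DMSO. The DMSO libraries therefore stood lowest at the median gene, which the choice of the genes favours. The DMSO shares are the inverse of the ratios of group means, MS8815 over DMSO, given above. Why their range was narrow was not tested.

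**Figure D3:**
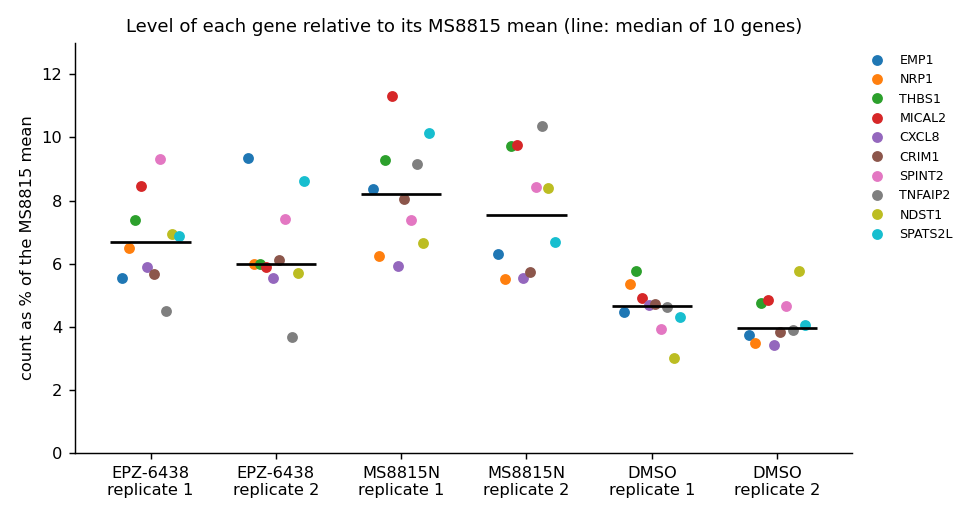
Level of each of the 10 genes with EPZ-6438, MS8815N and DMSO as a percentage of that gene's MS8815 mean, by library. At the median gene the shares of the group means are 6.51%, 7.72% and 4.30%.

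The comparison of EPZ-6438 with DMSO was made inside the EPZ-6438 table to ask how far the enzymatic inhibitor moved these genes. None of the 10 genes passed limma's test at an adjusted p below 0.05, in a table in which 0.0164% of genes were called higher and 0.0164% lower, 6 genes in all. At an unadjusted p below 0.05, 8 of 10 were higher (7.22% of all genes), and both EPZ-6438 libraries lay above both DMSO libraries for 8 of 10 (24.3% of all genes). The median log2 fold change of the 10 was 0.53, against 0.01 over all genes. The DMSO libraries also entered the choice of the 10 genes, so a low DMSO value raises these figures.

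SPINT2 averaged 153.4 ± 24.37 normalised counts with EPZ-6438, against 78.82 ± 9.303 with DMSO (SD, n = 2 each). Its log2 fold change was 0.95, with a 95% interval of 0.46 to 1.44 and an adjusted p of 0.121 by limma. SPATS2L had a log2 fold change of 0.87 (interval 0.43 to 1.32, limma adjusted p = 0.12), and EMP1 one of 0.81 (0.23 to 1.40, limma adjusted p = 0.209), which ran from 0.44 to 1.19 with 1 library left out. TNFAIP2, at 62.67 ± 8.906 with EPZ-6438 and 65.47 ± 8.195 with DMSO (SD, n = 2 each), had a log2 fold change of -0.06 with an interval of -0.59 to 0.46 (limma adjusted p = 0.922), and was the only one of the 10 with a negative value; its sign turned without EPZ-6438 replicate 2 (0.08) and without DMSO replicate 1 (0.06). The other 6 genes had log2 fold changes between 0.34 for THBS1 and 0.58 for NDST1, with limma adjusted p-values between 0.253 and 0.415.

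MS8815N was compared with DMSO in the same way, to ask how far an analog that is no PROTAC moved them. THBS1 and MICAL2 rose, 2 of the 10 genes, in a table in which limma called 0.288% of genes higher and 0.245% lower. THBS1 averaged 869.9 ± 28.04 normalised counts with MS8815N against 482.7 ± 65.2 with DMSO (SD, n = 2 each). Its log2 fold change was 0.85, with an interval of 0.60 to 1.11 and a limma adjusted p of 0.0329. MICAL2 averaged 345.9 ± 36.18 with MS8815N, against 160.5 ± 1.496 with DMSO (SD, n = 2 each). Its log2 fold change was 1.10, with an interval of 0.78 to 1.42 and a limma adjusted p of 0.0365. Both calls were lost when any of the 4 libraries was left out, with limma adjusted p-values of 0.103 to 0.448 for THBS1 and 0.161 to 0.443 for MICAL2 and log2 fold changes of 0.72 to 0.99 and 0.99 to 1.21. Mitochondrially encoded transcripts, of which 4 of 13 rose with MS8815N, made up 1.83% to 1.84% of counts with MS8815N, and their part in these calls was not tested.

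TNFAIP2 had the largest log2 fold change of the 10 with MS8815N, 1.18 with an interval of 0.72 to 1.65, and did not pass (limma adjusted p = 0.0668). In the joined fit of all 8 libraries the calls changed, with adjusted p-values by limma of 0.0463 for TNFAIP2, 0.0601 for THBS1 and 0.0502 for MICAL2. A joined fit without the MS8815 libraries, chosen after seeing the data, called all 3 genes. Its limma adjusted p-values were 0.0438 for TNFAIP2, 0.0269 for THBS1 and 0.0374 for MICAL2. NRP1 had the smallest log2 fold change with MS8815N, 0.44, with an interval of -0.06 to 0.93 (limma adjusted p = 0.384). This value ran from 0.13 to 0.74 with 1 library left out. That of NDST1, 0.83, ran from 0.38 to 1.29. The remaining 6 genes lay between 0.51 for CXCL8 and 0.97 for SPATS2L, with limma adjusted p-values between 0.103 and 0.301. At an unadjusted p below 0.05, 9 of 10 genes were higher (6.69% of all genes), and both MS8815N libraries lay above both DMSO libraries for 10 of 10 (23.5% of all genes). The median was 0.84, against 0 over all genes, and this comparison shares its DMSO libraries with that of EPZ-6438. Those DMSO libraries also entered the choice of the 10 genes. A low DMSO value therefore raises these figures too and favours the calls of THBS1 and MICAL2.

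**Figure D4:**
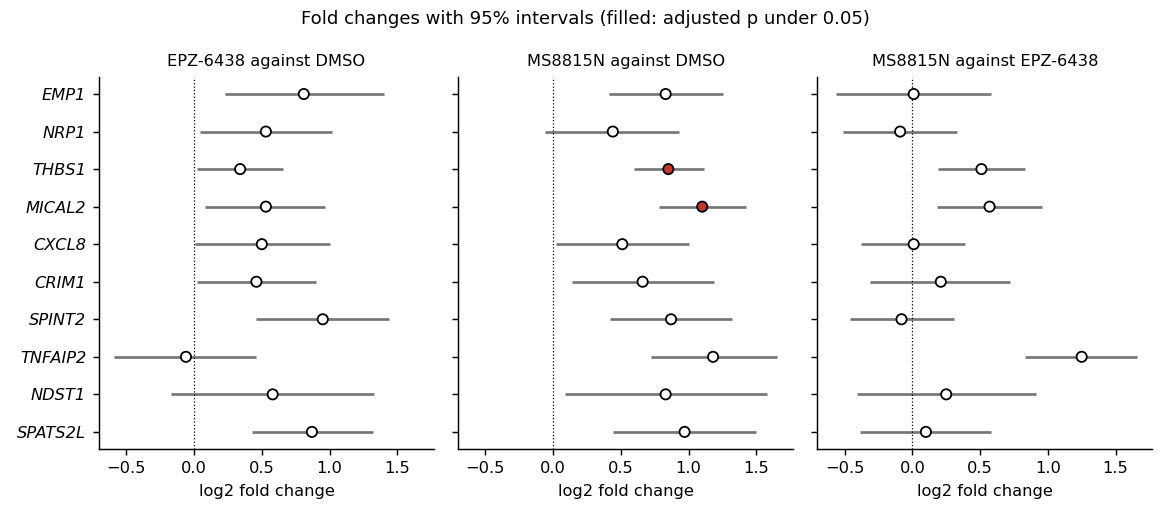
Log2 fold change of each of the 10 genes with its 95% interval, for EPZ-6438 against DMSO, MS8815N against DMSO and MS8815N against EPZ-6438. Filled points mark limma adjusted p-values below 0.05, which are THBS1 (0.85) and MICAL2 (1.10) for MS8815N against DMSO.

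The direct comparison of MS8815N with EPZ-6438, at the same dose and time, asks where the non-PROTAC analog and the SET-domain inhibitor differ, and neither of these groups entered the choice of the genes. It made 10 comparisons, 1 for each gene, in a fit over the 17467 shared genes and all 8 libraries, so the MS8815 and DMSO libraries entered the estimate of the spread. None of the 10 was called by limma, against 0.166% of all genes called higher and 0.00573% called lower. At an unadjusted p below 0.05, 3 of 10 were higher (3.17% of all genes), namely TNFAIP2, MICAL2 and THBS1, and for the same 3 the MS8815N libraries lay above the EPZ-6438 libraries without overlap (20.4% of all genes).

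TNFAIP2 averaged 149.6 ± 12.94 normalised counts with MS8815N and 62.67 ± 8.906 with EPZ-6438 (SD, n = 2 each). Its log2 difference was 1.25 with an interval of 0.83 to 1.66 and a limma adjusted p of 0.0596, which ranged from 0.0516 to 0.495 over the alternatives tried and was 0.185 with only the libraries of MS8815N and EPZ-6438 in the fit. MICAL2 differed by 0.57 on the log2 scale (interval 0.18 to 0.96, limma adjusted p = 0.551) and THBS1 by 0.51 (interval 0.19 to 0.83, limma adjusted p = 0.462). For EMP1 the difference was 0.01 with an interval of -0.56 to 0.58, and for CXCL8 0.01 with an interval of -0.38 to 0.39, so differences within these bounds could not be told from 0. With 1 library left out, EMP1 ran from -0.36 to 0.39 and changed sign, as did CXCL8, CRIM1, SPINT2 and SPATS2L. The other 5 genes lay between -0.09 for NRP1 and 0.25 for NDST1, and the median of the 10 was 0.15.

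Genes of the families and pathways around the members are described by counts, with 24.5% of all genes called higher and 22.4% lower with MS8815 as the background. The lists were chosen with earlier results of these data known, which can favour rises, so the counts are a description. The lists around EMP1, NRP1, CXCL8, CRIM1, SPINT2 and NDST1 held many genes that rose with MS8815, and those around THBS1, MICAL2 and TNFAIP2 were mixed. The EMP and PMP22 family rose in 3 of 3 cases, EMP2 with a log2 fold change of 3.92, PMP22 with 3.71 and EMP3 with 2.44. Of 19 semaphorins, VEGFs and plexins listed around NRP1, 17 were tested with MS8815, and 14 with EPZ-6438 or MS8815N. With MS8815, 14 of the 17 rose and none fell, with a median of 3.09. The semaphorin receptor PLXNA1 rose by 0.90 on the log2 scale. PLXNA3 (0.64, limma adjusted p = 0.0687) and VEGFB (-0.21, limma adjusted p = 0.115) did not pass. Genes absent from a table were not tested, so a gene kept there only through its MS8815 values can add to the rises.

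Of 18 chemokines and NF-κB cytokines listed with CXCL8, 12 were tested and 12 of 12 rose, with a median of 3.86. Among them were CXCL1 at 3.94, the macrophage growth factor CSF1 at 3.77 and LIF at 4.10. Of 15 extracellular modulators of BMP signalling listed with CRIM1, 11 were tested and 9 rose, with a median of 3.51. Among them were the ligand BMP4 at 3.95, FSTL1 at 3.74 and TWSG1, the most abundant of the list, at 0.37. Of 10 genes of hepatocyte growth factor activation and protease-activated receptors, listed with SPINT2, 5 were tested and 5 of 5 rose, with a median of 4.2. The receptor MET had 4.2 and the protease-activated receptors F2RL1 and F2R had 4.22 and 4.31. Heparan sulfate genes, the setting of NDST1, rose in 12 of 17 cases and fell in 1, the 2-O-sulfotransferase HS2ST1 (-0.38), with a median of 2.33; the chain polymerase EXT2 rose by 0.70 on the log2 scale, and EXTL3 had 0.18 and did not pass (limma adjusted p = 0.419).

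The thrombospondin list rose in 4 of 11 cases and fell in 2, with a median of 0.29; the integrin ITGB1 rose by 0.29 on the log2 scale, while the chaperone CALR fell by 0.48 and the growth factor TGFB1 by 0.30. The actin, MICAL and serum response factor list rose in 10 of 18 cases and fell in 3, with a median of 0.32, and FLNA, which crosslinks actin, rose by 1.61 on the log2 scale and the actin gene ACTG1 by 0.33, while VCL had -0.13 and did not pass (limma adjusted p = 0.0799). Around TNFAIP2, exocyst and TNFAIP genes rose in 2 of 13 cases and fell in 3, with a median of 0.05. The GTPase RALA fell by 0.41 on the log2 scale, while the subunits EXOC5 (-0.15, limma adjusted p = 0.0718) and EXOC7 (0.19, limma adjusted p = 0.0538) did not pass. SPATS2, the paralog of SPATS2L, fell by 0.48 on the log2 scale. Targets of the YAP and TAZ co-activators, genes known to be high in attached cells, rose in 18 of 20 cases with a median of 4.07, among them AXL at 4.05 and CYR61 at 4.10, while ASAP1 had 0.12 and did not pass (limma adjusted p = 0.386).

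With EPZ-6438, limma called no gene of these lists, and the list medians lay between -0.13 for SPATS2 and 0.38 for the BMP modulators. With MS8815N, limma called 1 gene, FLNA, at a log2 fold change of 0.19 (adjusted p = 0.0426). Between MS8815N and EPZ-6438 it called CALR, at 0.20 (adjusted p = 0.016). At an unadjusted p below 0.05, 20 of the 124 list genes tested with EPZ-6438 were higher and 16 lower, against 7.22% and 9.57% of all genes. With MS8815N, 22 of 125 were higher and 11 lower, against 6.69% and 9.04% of all genes.

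**Figure D5:**
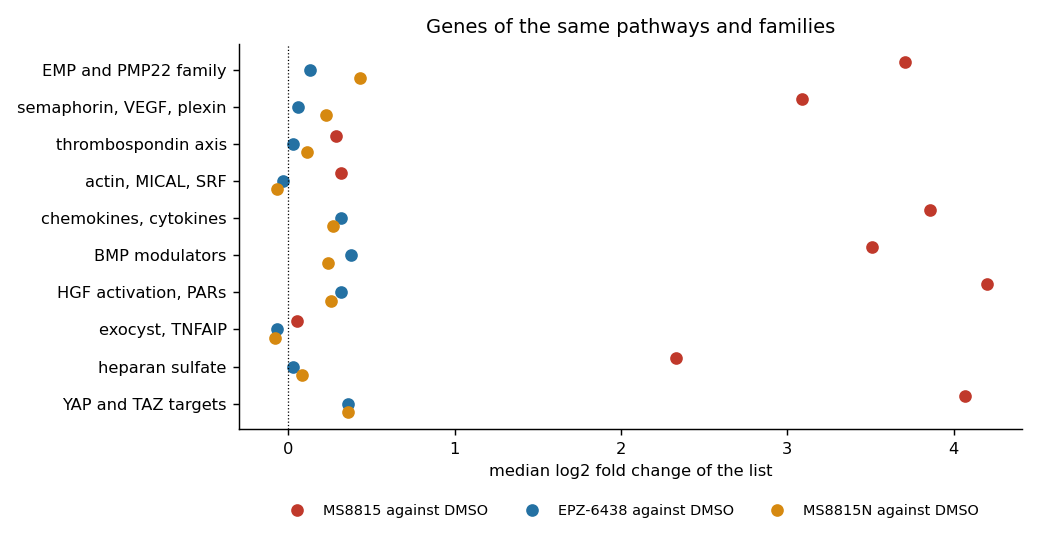
Median log2 fold change of each pathway or family list for MS8815, EPZ-6438 and MS8815N against DMSO. The MS8815 medians reach 4.2 for hepatocyte growth factor activation and 4.07 for YAP and TAZ targets, and lie at 0.05 for the exocyst list, 0.29 for the thrombospondin list and 0.32 for the actin list.

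The genes whose profile over the 8 libraries came nearest to the median profile of the 10 were ABLIM3, IRS2, RIN3, FZD6 and F2R. Likeness was measured as the root mean square distance of log2(normalised count + 1) from the DMSO mean, and was 0.141 for ABLIM3, 0.145 for IRS2, 0.155 for RIN3, 0.156 for FZD6 and 0.161 for F2R. ABLIM3, an actin-binding LIM protein, averaged 486.7 normalised counts with MS8815, 31.41 with EPZ-6438, 43.4 with MS8815N and 21.17 with DMSO. Distances of the 10 genes themselves ran from 0.172 for CXCL8 to 0.350 for TNFAIP2, and between 8 and 201 other genes lay closer to the median profile than each member did.

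Position in the genome was described through the nearest tested protein-coding gene on each side. Genes that overlap a member were left out here and are given in the next paragraph. Of these 20 neighbours, 11 rose and 6 fell with MS8815, with a median log2 fold change of 0.52, where 24.5% of all genes rose and 22.4% fell with a median of 0. Distances to the neighbours ran from 6689 bases to 2756544 bases, so some are far away. Log2 fold changes above 3 were found for C19orf33 (4.24), which lies 11547 bases from SPINT2, PARVA (3.70), 18041 bases from MICAL2, and SYNPO (3.19), 42869 bases from NDST1. They were also found for CDC42BPB (4.59), 65980 bases from TNFAIP2, CXCL1 (3.94), 125677 bases from CXCL8, GPR176 (4.58), 199566 bases from THBS1, and PARD3 (4.31), 773298 bases from NRP1. Both neighbours of CRIM1, STRN at 292505 bases and FAM98A at 2756544 bases, fell, with log2 fold changes of -0.31 and -0.33. Both neighbours of SPATS2L, KCTD18 at 6689 bases and MAIP1 at 297341 bases, also fell, with log2 fold changes of -0.40 and -0.50.

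For 3 members a tested protein-coding gene overlaps on the opposite strand, and the strand setting of the counting is not given, so their reads cannot be told apart with certainty. FSIP1, which overlaps THBS1, averaged 31.12 normalised counts with MS8815 and 29.58 with DMSO. FEZ2, which overlaps CRIM1, averaged 1178 with MS8815 and 1026 with DMSO. PPP1R14A, which overlaps SPINT2 and was not in all 3 tables, had 12.85 and 12.43 with MS8815 and 1.893 and 0.5295 with DMSO in the MS8815 table.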

How the data were processed

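RNA-seq of SUDHL6 cells was used as deposited: 3 tables, each with the 2 libraries of a compound and the same 2 DMSO libraries, holding variance-stabilised values from DESeq2, close to log2 counts, as the authors deposited them and per the file headers. STAR 2.4.2, Salmon and GRCh38 are named in the submitters' processing notes, without role. The labels name either of 2 library kits without saying which library had which.

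Each transformed value was turned back into a normalised count by the closed form of the transform, and the tables were joined through their shared DMSO libraries, whose values differed only by constants per gene and per library (largest deviation 7e-11). Depth was estimated from whole multiples of the value of 1 read (tolerance 0.02), which 40.0% to 63.6% of low values met, against 4% by chance. Tests were limma 3.58.1 with trend (R 4.3.3) on the deposited log2-scale values within a table, or on log2(normalised count + 1) of the 8 joined libraries for MS8815N against EPZ-6438, with Benjamini-Hochberg adjustment over all genes. Residual degrees of freedom were 2 within a table and 4 in the joined fit. Fold changes, standard errors and 95% intervals used log2(normalised count + 1), which understates changes of low genes. The fits were tested on simulated data. The genes and lists were chosen with earlier results of these data known. Named genes were the 10 members, the 3 highest genes by mean count of each list, and the 5 genes nearest in profile; other genes in the text were chosen after their values were seen. Alternatives were other pseudocounts, scalings and filters, and leaving out each library.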

Additional observations from a re-analysis of the deposited data

How the results depend on the processing

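Single-gene values of the 10 genes under the alternatives kept their direction and side of the threshold in 462 cases, moved in 39 (descriptive MS8815 values), gained the call in 4, lost it in 10 and changed sign in 11, none of which was a called value. All 11 left out 1 library, over which TNFAIP2 with EPZ-6438 ran from -0.21 to 0.08, and for MS8815N against EPZ-6438 EMP1 ran from -0.36 to 0.39, CXCL8 from -0.04 to 0.06, CRIM1 from -0.04 to 0.45, SPINT2 from -0.24 to 0.08 and SPATS2L from -0.20 to 0.39. The median log2 fold change with MS8815 was 4.52, 4.30 with a pseudocount of 10, 4.01 after quantile scaling, 5.59 when scaled to the B-cell markers and 4.40 to 4.62 with 1 library left out. The EPZ-6438 median was 0.53, 0.43 over the 2 genes left (NRP1 and THBS1, with unchanged values) without the lower 50% of genes by level, 0.41 after quantile scaling and 0.41 to 0.66 with 1 library left out. The MS8815N median was 0.84, 0.74 after quantile scaling and 0.78 to 0.88 with 1 library left out. For MS8815N against EPZ-6438 the median was 0.15, and -0.01 to 0.30 with 1 library left out. The count of the 10 genes called with MS8815N was 2, 0 without any 1 library, and 1 (TNFAIP2) in the joined fit of 8 libraries; the cause was not tested.

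Counts over all genes moved more. With EPZ-6438, 6 genes were called, 283 without low genes, 13 after quantile scaling, 169 without trend, 25 on log2 counts, 0 with 1 library left out and 0 in the joined fit (3076 at an unadjusted p below 0.05 by limma). With MS8815N, 98 were called (54.1% higher), 389 (31.6%) without low genes, 252 (33.3%) without trend, 65 (67.7%) in the joined fit, and 0 to 6 with 1 library left out. For MS8815N against EPZ-6438, 30 were called, 17 after quantile scaling, 8 under B-cell scaling, 4 without trend and 8 to 60 with 1 library left out. A joined fit without the MS8815 libraries, chosen after seeing the data, called 184, 298 (38.9% higher) and 73 genes in these comparisons. Of the 10 genes it called 3 with MS8815N against DMSO, namely THBS1, MICAL2 and TNFAIP2. With the replicate number as a block, 4 of the 10 genes were called with MS8815N (EMP1, THBS1, MICAL2 and TNFAIP2), and 10 genes with EPZ-6438 and 353 (32.6% higher) with MS8815N in all; the labels do not say that numbers pair libraries, and replicate differences correlated by 0.283 between MS8815N and DMSO and by -0.0242 to 0.0472 between the other groups over 8733 genes. The MS8815 libraries had less than the depth of the others, and the 2 libraries a group limit the precision of every value.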
